A study of Mus musculus with 4 samples.

Results

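Fatty acid oxidation and peroxisomal lipid genes are described here in MC38, a mouse colon carcinoma cell line, as a set of 37 genes chosen by name. All 37 were found by symbol among the 22186 genes of the deposited expression table. The study compared 2 DOX cultures, which received doxycycline at 1 µg/mL, with 2 control cultures, which received the PBS solvent, and all 4 were harvested after 72 h. Every culture carried the same stable TetOn-CXCL14 construct, which doxycycline switches on to make the chemokine CXCL14. The labels do not say whether the line is a single clone, and no culture without the construct was given doxycycline, so the effects of the drug and of CXCL14 cannot be told apart. Levels are in TPM, a transcript's length-scaled share of a library, so they can be compared between genes.

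Mitochondria burn fatty acids in a repeating cycle. The carnitine shuttle carries long acyl chains across the inner membrane. Chain-length-specific dehydrogenases, hydratases, hydroxyacyl-CoA dehydrogenases and thiolases then shorten them by acetyl-CoA units, and the electron transfer flavoprotein passes the electrons to the respiratory chain. Peroxisomes run a related cycle on very long and branched chains, and the nuclear receptors of the PPAR family, with their PGC-1 coactivators, are known activators of genes for both.

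Most of the oxidation genes stood lower after doxycycline, while 1 thioesterase stood far higher. Cpt1a, the gate of the carnitine shuttle, fell to 0.237 of its control level, the medium-chain dehydrogenase Acadm to 0.515 and the peroxisomal enzyme Hsd17b4 to 0.598 (ratios of mean TPM). Acot2, a mitochondrial acyl-CoA thioesterase, rose 6.46-fold, and Eci1, Etfb and Echs1 rose 1.27-fold to 1.45-fold. Of the 37 genes, 32 had a mean of at least 1 TPM and were tested. Among these, 20 were lower and 6 higher in DOX cultures at an adjusted p under 0.05 (limma), or 62.5% and 18.8% of those tested, against 35.4% lower and 29.0% higher among all 11359 genes tested. One of the 20, Ppara, reached the filter through the control cultures alone, and without it 19 of 31 were lower. In either direction 81.2% of them were called, against 64.4% of all genes tested. The median log2 fold change of the 32 was -0.36, beside -0.04 for all genes tested. Other scalings turned the balance of all genes to slightly more higher than lower, while 19 or 20 of the 32 were lower. In 25 of the 32 both DOX libraries lay below both control libraries and in 7 both lay above, so the groups did not overlap for any of the 32, which was so for 82.7% of all genes tested. The size of most changes was modest: 30 of the 32 lay between -1 and 1 on the log2(TPM + 1) scale. That scale understates changes of low genes. Cpt1c, at -0.93, passed -1 with 0.1 or 0.5 added in place of 1 (-1.28 and -1.10). Summed over the 37 genes the level was 1732 and 1724 TPM in DOX cultures, against 2003 and 1988 TPM in control cultures.

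**Figure D1:**
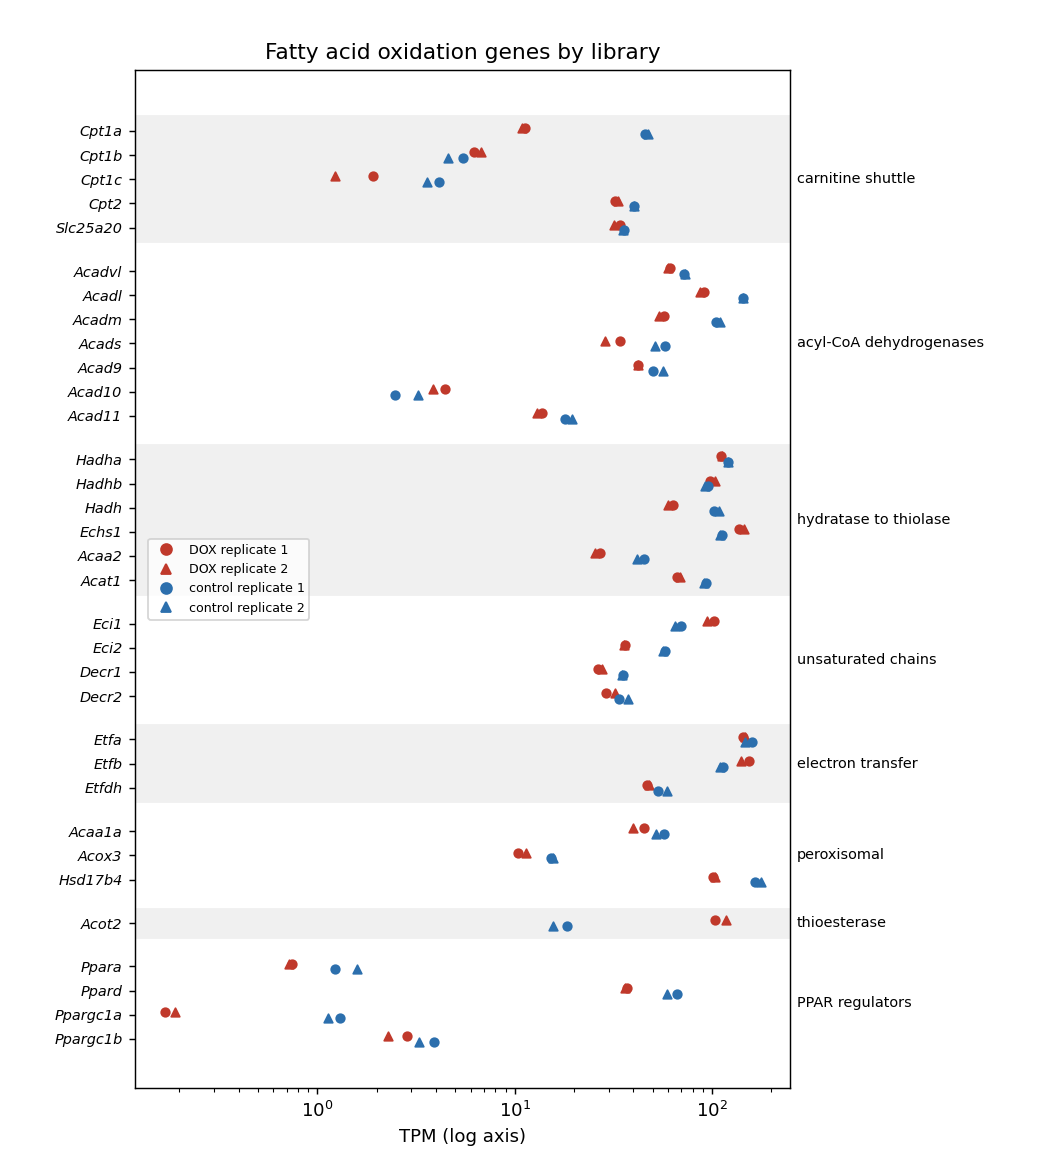
TPM of each gene in each of the 4 libraries on a log axis, for the 33 genes above 0 in every library, grouped by role, with DOX libraries in red and control libraries in blue. Cpt1a lies at 10.9 and 11.2 TPM in DOX cultures and has a mean of 46.5 TPM in control cultures, and Acot2 has means of 110.2 TPM in DOX cultures and 17.1 TPM in control cultures.

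Some values bear on all of these comparisons. Cxcl14 stood at 385 and 391 TPM in DOX cultures, against 27.3 and 29.2 TPM in control cultures, as the labels call for. Replicates of a group differed by an SD of 0.16 (DOX) and 0.18 (control) in log2 units over the tested genes, and libraries of different groups by 0.69 to 0.74. The tables hold no read counts, so depth is unknown. With 2 libraries in each group an exact two-sided permutation test cannot go below p = 0.33, so each call leans on limma's variance estimate pooled over genes. Of 9 colon epithelium markers none reached a mean of 1 TPM, with sums of 0.0774 and 0.459 TPM in DOX cultures and 0.453 and 0.539 TPM in control cultures, and Cdh1, Krt19 and Cdx2 were listed at 0 in every library. Epithelial markers expected of a colon line were thus at or near 0 in both groups. Among 4 hepatocyte and 5 adipocyte markers, which stand for tissues known for fatty acid oxidation or storage, none was tested. The hepatocyte sum was 0.260 and 0.308 TPM in DOX cultures and 0.152 and 0.519 TPM in control cultures, with Ttr and Serpina1a at 0 throughout. The adipocyte sum was 0.287 and 0 TPM in DOX cultures and 0.384 and 0.163 TPM in control cultures, with Plin1 and Lep at 0 throughout. Of 7 macrophage and leukocyte markers only Cd68 was tested, and it fell. Their sum was 4.83 and 5.12 TPM in DOX cultures and 8.31 and 7.33 TPM in control cultures, with C1qa, C1qc and Laptm5 listed at 0 in every library. In bulk RNA such as this, fewer cells of a type and less RNA per cell cannot be told apart.

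The stretches upstream of 4 genes are shown because these genes carry the contrast: Cpt1a had the largest fall and Acot2 the largest rise among the tested genes of the set, and Acadm and Echs1 are successive enzymes of the cycle called in opposite directions. Each is the 250 bases before the annotated start in RefSeq on build GRCm38.p6, given 5′ to 3′ on the gene's own strand, at chr19:3323051-3323300 (+), chr3:153944644-153944893 (-), chr7:140116422-140116671 (-) and chr12:83987611-83987860 (+). Capitals mark matches on either strand: GC boxes (GGGCGG) and a CCAAT box (CCAAT) in Cpt1a, a nuclear receptor half-site (AAGGTCA) in Acadm, a CEBP-ATF element (TGATGNAA) and GC boxes in Echs1 and a CCAAT box in Acot2.
Cpt1a: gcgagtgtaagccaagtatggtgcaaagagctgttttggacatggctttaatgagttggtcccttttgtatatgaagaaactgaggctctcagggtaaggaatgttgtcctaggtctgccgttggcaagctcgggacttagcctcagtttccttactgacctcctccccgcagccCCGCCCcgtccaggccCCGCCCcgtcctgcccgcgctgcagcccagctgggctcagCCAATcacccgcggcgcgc
Acadm: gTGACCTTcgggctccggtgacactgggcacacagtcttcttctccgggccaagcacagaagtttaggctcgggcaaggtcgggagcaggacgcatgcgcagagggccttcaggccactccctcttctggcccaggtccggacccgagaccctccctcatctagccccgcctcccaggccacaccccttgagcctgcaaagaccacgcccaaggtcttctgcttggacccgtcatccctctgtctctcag
Echs1: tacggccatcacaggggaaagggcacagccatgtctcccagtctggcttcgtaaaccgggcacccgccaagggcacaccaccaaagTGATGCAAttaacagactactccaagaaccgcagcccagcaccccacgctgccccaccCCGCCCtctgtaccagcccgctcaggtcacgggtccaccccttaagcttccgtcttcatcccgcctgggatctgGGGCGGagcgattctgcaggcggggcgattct
Acot2: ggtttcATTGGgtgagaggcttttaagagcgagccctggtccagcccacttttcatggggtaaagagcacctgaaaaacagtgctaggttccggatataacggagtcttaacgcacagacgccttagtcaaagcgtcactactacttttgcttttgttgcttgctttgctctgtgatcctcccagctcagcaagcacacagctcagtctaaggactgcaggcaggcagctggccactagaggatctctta

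The searched letters were found in few or many of the set's upstream stretches depending on the motif. A RefSeq stretch was at hand for 30 of the 37 genes, some of them too low to be tested. Matches in the set are counted by gene, and the shares given beside them by stretch. GC boxes were present for 22 of these 30, or 73.3%, beside 32.7% of all 32851 stretches and 58.5% of the 11698 stretches of tested genes. They stood in 12 of the 15 lower genes with a stretch, 2 of the 5 higher genes and 4 of the 5 genes not called. CCAAT boxes were present for 15 of 30, beside 33.9% of all stretches and 36.2% of those of tested genes. Among tested genes of the set they stood in 8 of the 15 lower, 2 of the 5 higher and 1 of the 5 not called. The half-site AAGGTCA was matched in Acadm alone among the 30, beside 4.08% of all stretches and 2.66% of those of tested genes, and its first base lay 249 bases before the start. The CEBP-ATF element was matched in Echs1 alone, beside 3.45% of all stretches and 1.91% of those of tested genes, 164 bases before the start. The PPAR direct repeat is AGGTCA followed by AGGTCA with any 1 base between, and its first copy can overlap the half-site above. It was matched in 0 of the 30, beside 0.033% of all stretches and 0.026% of those of tested genes. At such shares a 0 says little about the set. A copy upstream of the Acadm half-site would also lie outside the stretch searched. These matches describe letters in the stretch and say nothing of binding.

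Carnitine shuttle genes changed unequally. Cpt1a encodes the liver-type outer-membrane carnitine palmitoyltransferase that controls entry of long chains. It had 11.2 and 10.9 TPM in DOX cultures, against 45.9 and 47.1 TPM in control cultures. Both DOX libraries were about alike and far below both controls, and the log2 fold change was -1.98 (SE 0.08, limma adjusted p = 9.8e-08). Only 1.49% of all tested genes had a lower fold change. Cpt1b, the muscle-type isoform, had 6.21 and 6.77 TPM in DOX cultures, against 5.45 and 4.58 TPM in control cultures. That small difference lay just inside the threshold (log2 fold change 0.32, SE 0.13, limma adjusted p = 0.048). Cpt1c, the brain-type isoform of the endoplasmic reticulum, had 1.92 and 1.23 TPM in DOX cultures, against 4.14 and 3.62 TPM in control cultures, a fall of -0.93 on the log2 scale (SE 0.17, limma adjusted p = 0.0011). The isoforms' shares shifted with Cpt1a. Cpt1a made up 58.0% and 57.6% of the summed Cpt1 TPM in DOX cultures, against 82.7% and 85.2% in control cultures, and Cpt1b 32.1% and 35.9% in DOX cultures, against 9.83% and 8.27% in control cultures. Cpt2, which re-forms the acyl-CoA inside the mitochondrion, fell mildly, with 32.1 and 33.6 TPM in DOX cultures, against 40.3 and 40.1 TPM in control cultures (log2 fold change -0.28, SE 0.07, limma adjusted p = 0.0060). Slc25a20, the carnitine-acylcarnitine carrier of the inner membrane, was not called, with 34.1 and 32.1 TPM in DOX cultures, against 35.7 and 35.3 TPM in control cultures (limma adjusted p = 0.25). The ratio of Cpt2 to Cpt1a TPM was thus 2.86 and 3.10 in DOX cultures, against 0.879 and 0.850 in control cultures. The Cpt1b call ended in 8 of 14 other settings, among them without DOX replicate 1, DOX replicate 2 or control replicate 2 (limma adjusted p = 0.070, 0.20 and 0.21) and under the replicate block (0.052), with a range of 0.0032 to 0.21, and 1841 bases of its transcripts are shared at 100% identity with the overlapping gene model Gm44502. Muscle markers other than Tnnt2 had means below 1 TPM, and Tnnt2 itself stood at 16.5 and 13.4 TPM in DOX cultures, against 25.6 and 28.5 TPM in control cultures. The 5 muscle markers summed to 16.6 and 13.5 TPM in DOX cultures and 26.0 and 28.7 TPM in control cultures, and the 5 neuron markers to 30.7 and 27.8 TPM in DOX cultures and 44.2 and 39.7 TPM in control cultures, mostly from Tubb3, with Snap25 at 0 throughout. The part of such genes in the Cpt1b and Cpt1c values was not tested.

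Acyl-CoA dehydrogenases, which take the first electrons from the chain, were lower in 6 of 7 cases, against 35.4% lower among all genes tested. The medium-chain enzyme Acadm fell most, with 57.0 and 53.6 TPM in DOX cultures, against 104 and 110.3 TPM in control cultures (log2 fold change -0.94, SE 0.07, limma adjusted p = 2.5e-06). For the short-chain enzyme Acads the libraries stood at 34.4 and 28.8 TPM in DOX cultures, against 57.8 and 51.6 TPM in control cultures (log2 fold change -0.78, SE 0.10, limma adjusted p = 9.6e-05). Long-chain Acadl had 91.1 and 86.7 TPM in DOX cultures, against 144.4 and 143.8 TPM in control cultures (log2 fold change -0.69, SE 0.06, limma adjusted p = 9.5e-06). Very-long-chain Acadvl, which works at the inner membrane, fell less, with 60.9 and 59.7 TPM in DOX cultures, against 71.9 and 73.0 TPM in control cultures (log2 fold change -0.26, SE 0.06, limma adjusted p = 0.0048). For each of these 4 straight-chain enzymes both DOX libraries lay below both controls. Groups did not overlap, in either direction, for 82.7% of all genes tested. The 4 enzymes summed to 243 and 229 TPM in DOX cultures, against 379 TPM in each control culture. Within that sum Acadvl took 25.03% and 26.1% in DOX cultures, against 19.0% and 19.3% in control cultures, and Acadm 23.4% in each DOX culture, against 27.6% and 29.1% in control cultures. The shares of Acads overlapped between groups, and those of Acadl differed little, at 37.4% and 37.9% in DOX cultures, against 38.1% and 38.0% in control cultures. Acad9, also an assembly factor of respiratory complex I, fell to 42.1 ± 0.129 TPM in DOX cultures, against 53.4 ± 4.24 TPM in control cultures (SD, n = 2 each). Acad11 fell to 13.4 ± 0.514 TPM in DOX cultures, against 18.8 ± 1.19 TPM in control cultures. Acad10, a less studied relative, was the exception, with 4.44 and 3.88 TPM in DOX cultures, against 2.49 and 3.24 TPM in control cultures (log2 fold change 0.42, SE 0.15, limma adjusted p = 0.032). The Acad10 call ended without DOX replicate 1 or control replicate 1 (limma adjusted p = 0.15 and 0.16) and with no filter on low values (0.081), over a range of 0.0024 to 0.16, and 933 bases of Acad10 transcripts match Acad12 at 97.7% identity, so its reads may be split.

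**Figure D2:**
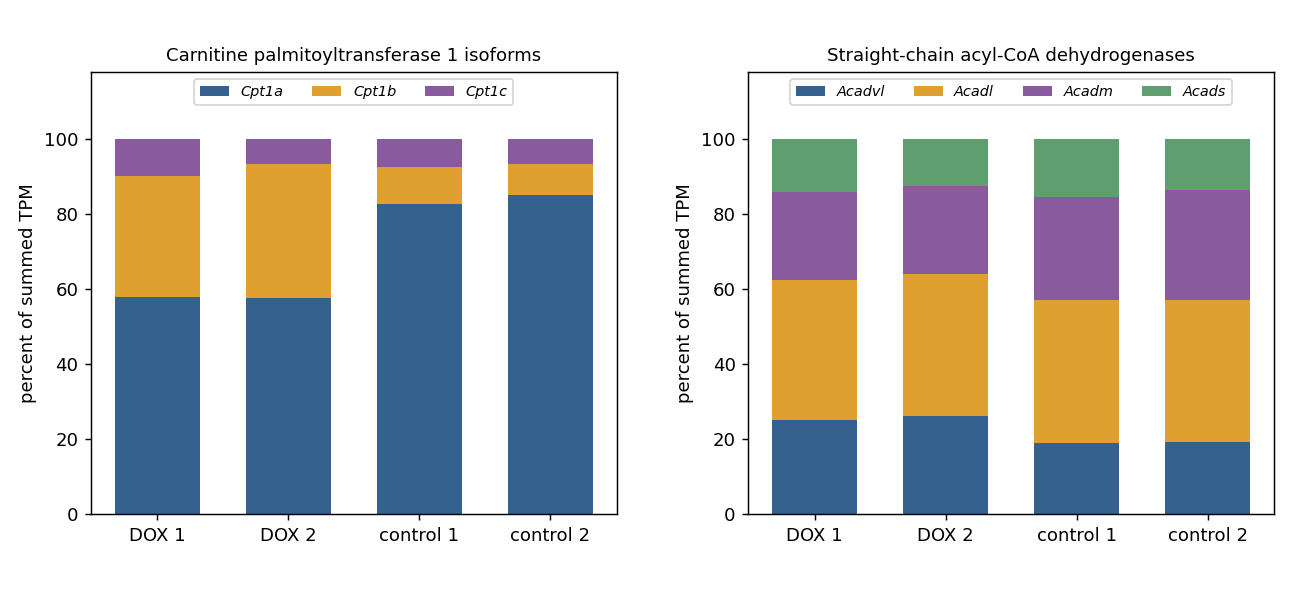
Percent of summed TPM in each library taken by each carnitine palmitoyltransferase 1 isoform (left) and each straight-chain acyl-CoA dehydrogenase (right), DOX libraries first. Cpt1b takes 32.1% and 35.9% of the Cpt1 sum in DOX cultures, against 9.83% and 8.27% in control cultures.

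Enzymes of the later steps split by partner. Hadha and Hadhb, the subunits of the mitochondrial trifunctional protein that handles long chains, were not called. Hadha had 111 and 112 TPM in DOX cultures, against 121 and 119.9 TPM in control cultures (limma adjusted p = 0.14), and Hadhb 97.4 and 104 TPM in DOX cultures, against 95.5 and 92.6 TPM in control cultures (limma adjusted p = 0.21). Both genes thus differed little from their control means, with ratios of 0.929 and 1.07, and each crossed the threshold under 1 other scaling: Hadha under quantile normalization (limma adjusted p = 0.032) and Hadhb under median-of-ratios scaling (0.045). The short-chain enzymes did change, and not alike. Echs1, the enoyl-CoA hydratase, rose, with 137 and 145 TPM in DOX cultures, against 112 and 110.3 TPM in control cultures (log2 fold change 0.34, SE 0.06, limma adjusted p = 8.5e-04). Hadh, the hydroxyacyl-CoA dehydrogenase that takes the next step, fell, with 63.4 and 60.0 TPM in DOX cultures, against 103 and 109 TPM in control cultures (log2 fold change -0.77, SE 0.07, limma adjusted p = 8.2e-06). The pair stood apart in DOX cultures and near equal in control cultures, and the ratio of Echs1 to Hadh TPM was 2.17 and 2.42 in DOX cultures, against 1.09 and 1.011 in control cultures. Acaa2 and Acat1, the thiolases outside the trifunctional protein, both fell, whereas Hadhb was not called. Acaa2, which cleaves medium-chain ketoacyl-CoA, stood at 26.3 ± 1.16 TPM in DOX cultures, against 43.5 ± 2.69 TPM in control cultures (SD, n = 2 each, log2 fold change -0.71, limma adjusted p = 4.6e-05). Acat1, the acetoacetyl-CoA thiolase that also serves ketone and isoleucine breakdown, stood at 67.5 ± 1.56 TPM in DOX cultures, against 92.1 ± 2.06 TPM in control cultures (log2 fold change -0.44, limma adjusted p = 1.9e-04). Hadhb transcripts match the processed pseudogene Gm13910 at 99.8% identity over 1428 bases, so the Hadhb level is uncertain.

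Auxiliary enzymes for unsaturated chains and the electron transfer flavoprotein also divided. Eci1, the mitochondrial enoyl-CoA isomerase, rose, with 102 and 94.03 TPM in DOX cultures, against 70.0 and 65.1 TPM in control cultures (log2 fold change 0.53, SE 0.07, limma adjusted p = 1.4e-04). Its relative Eci2, found in both mitochondria and peroxisomes, fell, with 36.4 and 35.8 TPM in DOX cultures, against 57.5 and 56.6 TPM in control cultures (log2 fold change -0.65, SE 0.07, limma adjusted p = 2.8e-05). The isomerases therefore stood further apart after doxycycline, with an Eci1 to Eci2 ratio of 2.81 and 2.62 in DOX cultures, against 1.22 and 1.15 in control cultures. Decr1, the mitochondrial dienoyl-CoA reductase, fell to 27.2 ± 0.807 TPM in DOX cultures, against 35.2 ± 0.285 TPM in control cultures (SD, n = 2 each, limma adjusted p = 0.0019). Decr2, its peroxisomal counterpart, just missed the threshold, with 28.9 and 32.4 TPM in DOX cultures, against 33.8 and 37.5 TPM in control cultures (limma adjusted p = 0.056). Etfa and Etfb encode the subunits of the flavoprotein. Etfb rose, with 153 and 141 TPM in DOX cultures, against 114 and 110.1 TPM in control cultures (log2 fold change 0.39, SE 0.06, limma adjusted p = 6.5e-04). Etfa was not called, with 144 and 146 TPM in DOX cultures, against 159 and 147 TPM in control cultures (limma adjusted p = 0.36). The Etfb to Etfa ratio was 1.06 and 0.963 in DOX cultures, against 0.719 and 0.752 in control cultures. Etfb transcripts match the overlapping gene model Gm45233 at 99.7% identity over 626 bases, so the Etfb level is uncertain. Etfdh, the oxidoreductase that hands the electrons to ubiquinone, had 46.9 and 47.9 TPM in DOX cultures, against 53.0 and 59.2 TPM in control cultures (log2 fold change -0.24, SE 0.07, limma adjusted p = 0.019). The Etfdh call ended without DOX replicate 1 or control replicate 2 (limma adjusted p = 0.080 and 0.11) and under median-of-ratios scaling (0.073), with a range of 0.010 to 0.11. Decr2 was called in 4 of 14 other settings, among them without DOX replicate 2 or control replicate 1 (limma adjusted p = 0.034 and 0.0495), over a range of 0.026 to 0.32.

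**Figure D3:**
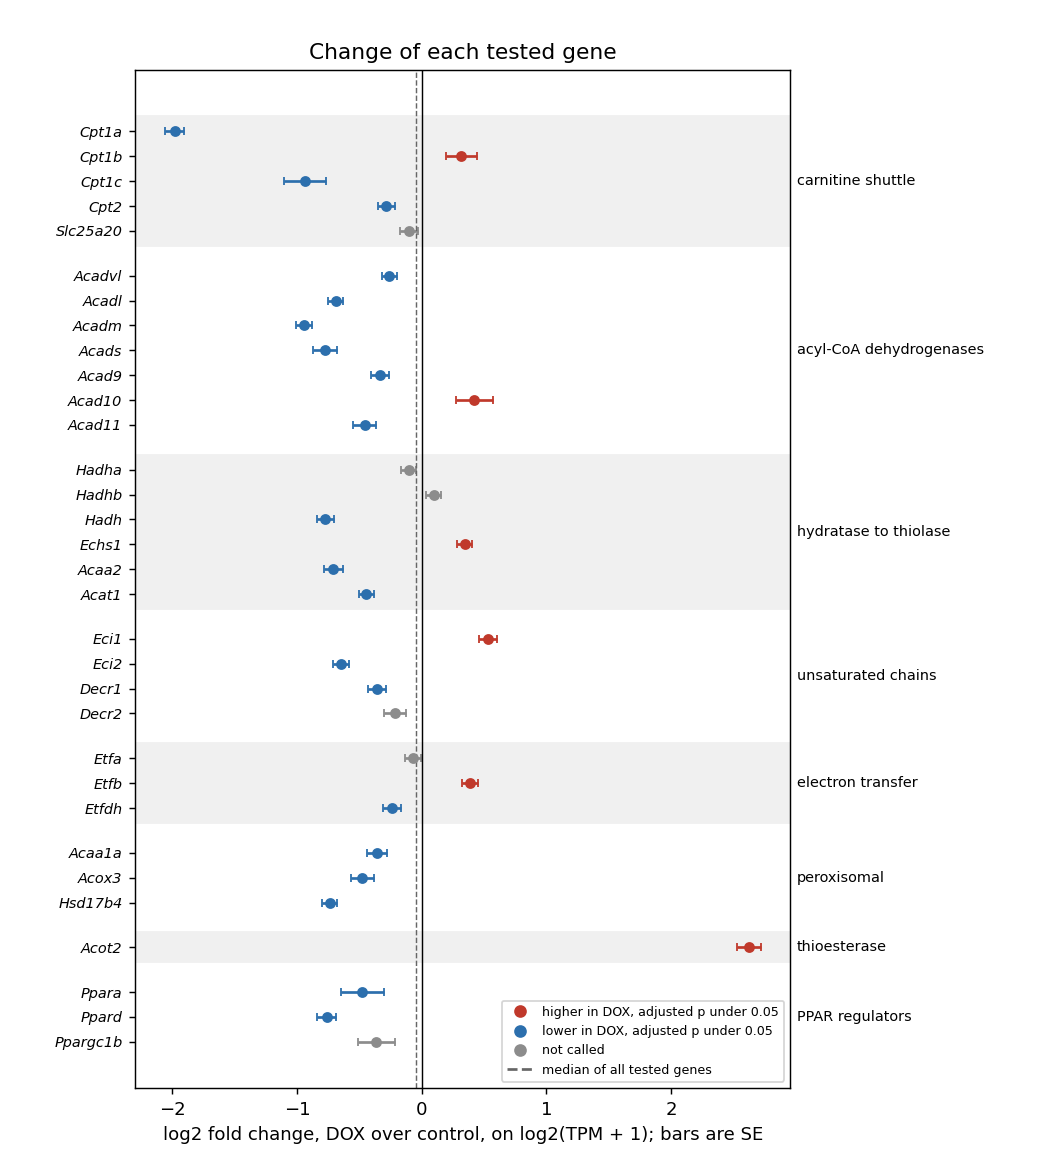
Log2 fold change of DOX over control on log2(TPM + 1), with SE, for the 32 tested genes grouped by role; red is higher and blue lower in DOX at an adjusted p under 0.05 (limma), grey is not called, and the dashed line is the median of all tested genes (-0.04). Acot2 at 2.62 and Cpt1a at -1.98 are the only points beyond 1 in size.

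Peroxisomal enzymes of the set were lower in all 3 cases tested, against 35.4% lower among all genes tested. Hsd17b4, the multifunctional enzyme that hydrates and oxidises very long and branched chains, had 102 and 103 TPM in DOX cultures, against 166 and 176 TPM in control cultures (log2 fold change -0.74, SE 0.06, limma adjusted p = 7.1e-06). With its control mean of 171 TPM it was the most abundant member of the set in control cultures. Acox3, the oxidase for branched chains, had 10.4 and 11.4 TPM in DOX cultures, against 15.4 and 15.7 TPM in control cultures (log2 fold change -0.47, limma adjusted p = 0.0017). Acaa1a, the peroxisomal thiolase, had 45.1 and 39.8 TPM in DOX cultures, against 57.0 and 52.3 TPM in control cultures (log2 fold change -0.36, limma adjusted p = 0.0040). Ehhadh, the other multifunctional enzyme, was listed at 0 in 3 libraries and at 0.0979 TPM in DOX replicate 1. Acaa1a shares 307 bases at 98.7% identity with a transcript of Acaa1b, which stood at 0 in 3 libraries and 0.167 TPM in control replicate 1.

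Acot2 gave the widest difference among the tested genes of the set. It encodes a mitochondrial thioesterase that releases free fatty acid from long-chain acyl-CoA. Its level was 103 and 117 TPM in DOX cultures, against 18.4 and 15.7 TPM in control cultures (log2 fold change 2.62, SE 0.09, limma adjusted p = 6.1e-08). Only 0.15% of all tested genes had a higher fold change. Acot2 made up 5.96% and 6.80% of the set's summed TPM in DOX cultures, against 0.920% and 0.789% in control cultures, and without it the sum was 1629 and 1607 TPM in DOX cultures, against 1985 and 1973 TPM in control cultures. Acot1, its cytosolic paralog, was listed at 0 in all 4 libraries. Acot3, Acot4 and Acot5, further members of the family, were listed at 0 as well. A transcript of Acot1 matches Acot2 at 97.3% identity over 669 bases, so reads of the pair could be assigned to either, and a 0 for Acot1 may be an estimate that failed.

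Regulators of these genes were low or lower. Ppard was by far the most abundant PPAR gene, with 37.0 and 36.1 TPM in DOX cultures, against 66.2 and 59.4 TPM in control cultures (log2 fold change -0.76, SE 0.07, limma adjusted p = 2.1e-05). Ppara, the receptor best known for driving fatty acid oxidation in liver, had 0.746 and 0.719 TPM in DOX cultures, against 1.23 and 1.60 TPM in control cultures (log2 fold change -0.48, SE 0.17, limma adjusted p = 0.037). It reached the filter of 1 TPM only through the control cultures, so that call is no independent support for a fall. Both DOX libraries lay below both controls for each receptor, though the groups did not overlap for 82.7% of all genes tested. Pparg, the adipogenic receptor, was listed at 0 in all 4 libraries. The coactivator gene Ppargc1a had 0.170 and 0.190 TPM in DOX cultures, against 1.31 and 1.13 TPM in control cultures, a mean too low to be tested. With no filter on low values it was called lower (log2 fold change -0.91, limma adjusted p = 0.0012). Its level passed 1 TPM in the control cultures alone, so this call, too, is no independent support for a fall. Its relative Ppargc1b had 2.84 and 2.29 TPM in DOX cultures, against 3.89 and 3.28 TPM in control cultures, and was not called (limma adjusted p = 0.058). Cd36, the fatty acid translocase of the plasma membrane, was listed at 0 in both DOX cultures and at 0.0464 and 0.0492 TPM in control cultures. The Ppara call, on a gene near 1 TPM, ended without DOX replicate 1, DOX replicate 2 or control replicate 2 (limma adjusted p = 0.092, 0.11 and 0.14) and under quantile normalization (0.60), with a range of 0.0057 to 0.60. Ppargc1b was called without DOX replicate 1 (limma adjusted p = 0.045) and with no mean-variance trend (0.030), over a range of 0.030 to 0.88.

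Other peroxisomal enzymes mostly moved the same way as those of the set. In a list of 22 further enzymes of peroxisomal oxidation, alpha-oxidation and their cofactor turnover, 14 were tested. Of these, 2 were higher and 9 lower in DOX cultures (median log2 fold change -0.38). The share called was 78.6%, against 64.4% of all tested genes. Hao1, a hydroxyacid oxidase, reached the filter through the control cultures alone, and without it 8 of 13 were lower. It had 0.279 and 0.341 TPM in DOX cultures, against 1.88 and 2.06 TPM in control cultures. Hacl1, the lyase of alpha-oxidation, had 4.08 and 3.69 TPM in DOX cultures, against 8.79 and 9.16 TPM in control cultures. Cat, the catalase that removes the peroxide made by the oxidases, had 24.2 and 25.3 TPM in DOX cultures, against 45.6 and 43.3 TPM in control cultures (log2 fold change -0.82, limma adjusted p = 1.2e-05). Pecr, a peroxisomal enoyl-CoA reductase of chain elongation, rose, with 22.3 and 22.4 TPM in DOX cultures, against 15.8 and 13.2 TPM in control cultures (log2 fold change 0.59, limma adjusted p = 6.6e-04). Of 10 transporters and ether lipid enzymes of the peroxisome, 8 were tested, with 1 higher and 4 lower (median -0.20). The 62.5% called was close to the 64.4% of all tested genes. Far1, an enzyme of ether lipid synthesis, fell, with 51.1 and 52.5 TPM in DOX cultures, against 75.6 and 85.2 TPM in control cultures (log2 fold change -0.62, limma adjusted p = 7.3e-05). Slc25a17, a cofactor carrier of the membrane, fell (-0.31), and Abcd4, a family member that serves lysosomal cobalamin export, rose (0.28). Peroxins, which build the organelle, were called about as often as all genes. Of 17, 15 were tested, with 4 higher and 6 lower (median -0.02), or 66.7% called against 64.4% of all tested genes. Pex14, part of the import pore, stood at 107 and 113 TPM in DOX cultures, against 62.7 and 57.7 TPM in control cultures, and Pex7, an import receptor, at 31.5 ± 2.09 TPM in DOX cultures, against 51.0 ± 3.99 TPM in control cultures (SD, n = 2 each). Pex26, an anchor of the export machinery, also fell (log2 fold change -0.46).

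Genes that supply acyl-CoA to the pathway leaned lower. Of 27 acyl-CoA synthetases, fatty acid transporters and binding proteins, 14 were tested, with 1 higher and 9 lower (median -0.51). The share called was 71.4%, against 64.4% of all tested genes. Fabp4, a fatty acid binding protein, had 4.58 and 4.03 TPM in DOX cultures, against 71.3 and 69.7 TPM in control cultures (log2 fold change -3.75, SE 0.09, limma adjusted p = 7.6e-09). That fall exceeded those of all but 0.176% of the tested genes, while the adipocyte markers stayed below 1 TPM. Slc27a3, a synthetase of the fatty acid transport family, had 9.60 and 10.8 TPM in DOX cultures, against 21.4 and 20.4 TPM in control cultures. Acsf2, a further synthetase, also fell (log2 fold change -0.77). Acsbg1, another, reached the filter through the control cultures alone (log2 fold change -1.33), and without it 8 of 13 were lower. Acsl1, a long-chain synthetase, was the 1 higher gene of this list (log2 fold change 0.32, limma adjusted p = 0.019). Malonyl-CoA blocks the enzymes of the Cpt1 family. Of 9 genes that make, remove or regulate it, all tested, 1 was higher and 3 lower (median -0.04). The share called was 44.4%, below the 64.4% of all tested genes. Acaca, the carboxylase that makes malonyl-CoA, rose, with 82.3 and 79.5 TPM in DOX cultures, against 63.7 and 62.3 TPM in control cultures (log2 fold change 0.36, limma adjusted p = 8.2e-04). Mlycd, the decarboxylase that removes it, fell, with 9.28 and 9.13 TPM in DOX cultures, against 13.2 and 11.4 TPM in control cultures (log2 fold change -0.38, limma adjusted p = 0.011). The Acaca to Mlycd ratio was 8.86 and 8.71 in DOX cultures, against 4.82 and 5.47 in control cultures. Acacb, the other carboxylase gene of this list, was not called (log2 fold change 0.14, limma adjusted p = 0.43). It had 2.74 and 2.35 TPM in DOX cultures, against 2.30 and 2.13 TPM in control cultures. Whether malonyl-CoA itself changed was not tested. Prkag1, a regulatory subunit of AMP-activated protein kinase, fell as well (log2 fold change -0.54), as did the catalytic subunit gene Prkaa1 by less (-0.16).

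PPAR partners and further targets showed no common direction. Of 19 partner and cofactor genes, 17 were tested, with 5 higher and 5 lower (median -0.06). The share called was 58.8%, below the 64.4% of all tested genes. The receptor partners went opposite ways. Rxra fell, with 34.8 and 32.8 TPM in DOX cultures, against 62.5 and 60.8 TPM in control cultures (log2 fold change -0.85, limma adjusted p = 6.2e-06). Rxrb rose, with 67.0 and 74.5 TPM in DOX cultures, against 54.2 and 51.6 TPM in control cultures (log2 fold change 0.41, limma adjusted p = 9.4e-04). The Rxrb to Rxra ratio was 1.93 and 2.27 in DOX cultures, against 0.867 and 0.849 in control cultures. Lpin1, a phosphatidate phosphatase that also acts as a coactivator, fell (log2 fold change -1.04), and Med1, a Mediator subunit, rose (0.43). Esrra, an orphan receptor that works with PGC-1 coactivators, fell (-0.42). Among 16 other known PPAR targets only 5 were tested, with 3 higher and 1 lower (median 0.25). The share called was 80%, against 64.4% of all tested genes. Fgf21, which other stress pathways also induce, had 57.9 and 58.1 TPM in DOX cultures, against 2.70 and 1.86 TPM in control cultures. Angptl4 and Hilpda rose (log2 fold change 0.43 and 0.25) and Plin2, a lipid droplet coat protein, fell (-0.63). Classical targets in liver and muscle, Pdk4, Cyp4a10, Cyp4a14 and Lpl, were listed at 0 in all 4 libraries.

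**Figure D4:**
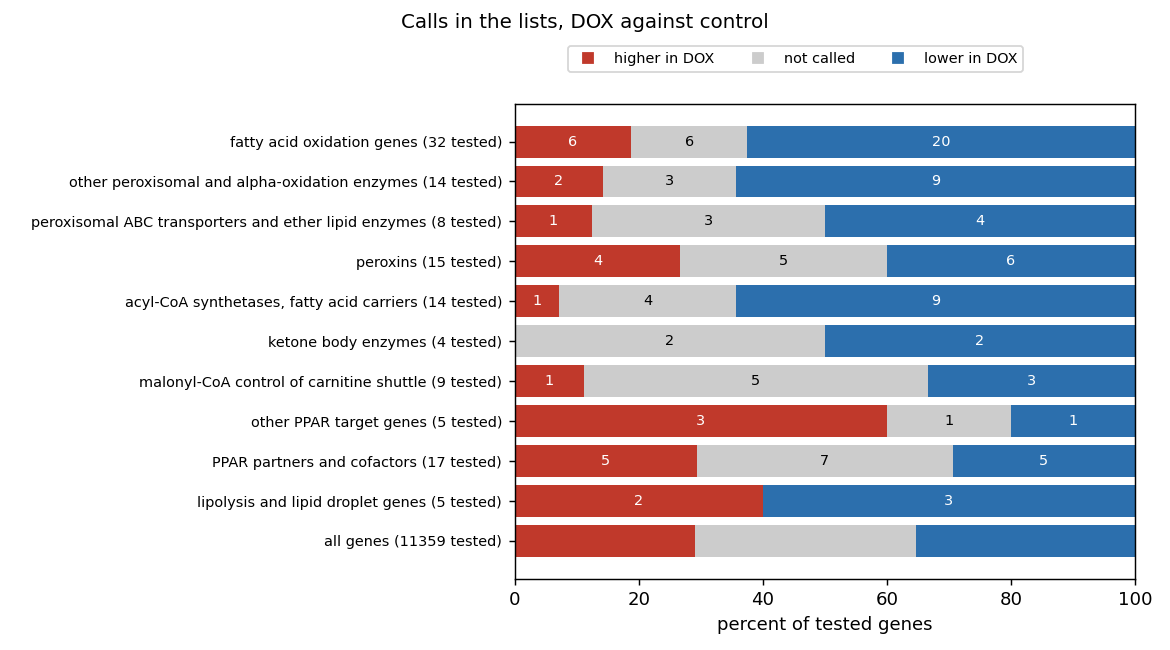
Percent of tested genes called higher (red), not called (grey) or lower (blue) in DOX cultures at an adjusted p under 0.05 (limma), for the oxidation genes, 9 lists of related genes and all tested genes, with the number of genes in each bar. The oxidation genes show 20 lower and 6 higher of 32, and the bottom bar the 35.4% lower and 29.0% higher of all 11359.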

How the data were processed

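Gene expression of the 4 MC38 TetOn-CXCL14 cultures, 2 per group, was assigned to groups by sample title. The authors deposited a TPM table and an FPKM table, as the file headers name them, and gene symbols identify the entries. The build is mm39, per the submitters' processing notes. An aligner, quantifier, annotation or strand setting is not given in the sources used here. Depth is unknown, and no counting interval is given. The series text calls the replicates biological.

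Testing covered genes averaging 1 TPM or more and was done on log2(TPM + 1) with limma 3.58.1 in R 4.3.3 (lmFit, eBayes with trend, no covariate), Benjamini-Hochberg over all 11359 genes, two-sided, called at an adjusted p under 0.05. On this scale changes of low genes are understated. Each member was to be named, with up to 4 called genes of each related list by size of change, and further genes were named after their values were seen. A few genes of these lists are not reported here. Members, lists, motifs and markers were chosen with earlier results of these data known. The fit was tested on simulated data.

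With blastn 2.17.0, closely matching transcripts of other genes were looked for in GENCODE M21 transcripts (at least 97% identity over 100 bases). By that annotation 9 members have an exon overlapping a gene on the opposite strand and 4 on the same strand, so reads there may be shared. Upstream stretches came from RefSeq on GRCm38.p6, another build than that of the tables. The 14 alternatives used a pseudocount of 0.1 or 0.5, no filter or one of 5 TPM, quantile or median-of-ratios normalization, the FPKM values, no variance trend or a robust fit, a block by replicate number, and omission of each library.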

Additional observations from a re-analysis of the deposited data

How the results depend on the processing

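The counts of oxidation genes called changed little: 4 to 7 were higher and 18 to 21 lower over the 14 alternatives, with 4 to 5 higher and 18 to 21 lower when a library was left out, where a lone library is assumed to vary like the other group. Their median log2 fold change moved to -0.31 with FPKM, -0.29 under median-of-ratios scaling and -0.27 under quantile normalization, and ranged from -0.37 to -0.33 with a library left out; it stayed negative throughout. The balance of all tested genes turned with scaling: 31.3% were lower and 33.5% higher under median-of-ratios scaling (median 0.02), and 29.5% lower and 34.1% higher under quantile normalization (median 0.05), against a median of -0.04 in the TPM values as deposited. Of 441 single-gene values under alternatives, 415 kept their direction and side of the threshold, 18 lost the call, 8 gained it and 0 reversed. For 24 genes no alternative changed the call. The replicate block, by the number in the titles, gave 5 higher and 21 lower. Deviations of same-numbered libraries had a correlation of -0.01, so the numbers were not taken to pair the samples. Depth is unknown, and genes near 1 TPM rest on the filter and pseudocount.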

Other observations

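Genes of lipid droplet breakdown were called in both directions. Of 9 lipolysis and lipid droplet genes, 5 were tested, with 2 higher and 3 lower in DOX cultures (median log2 fold change -0.68). The share called was 100%, against 64.4% of all tested genes. Pnpla2, the first lipase of triglyceride breakdown, had 58.2 and 62.9 TPM in DOX cultures, against 47.3 and 39.1 TPM in control cultures (log2 fold change 0.48, limma adjusted p = 0.0016). Its activator Abhd5 rose too, with 57.6 and 58.8 TPM in DOX cultures, against 49.6 and 43.3 TPM in control cultures (log2 fold change 0.32, limma adjusted p = 0.0055). Lipe, the next lipase, fell, with 5.43 and 4.98 TPM in DOX cultures, against 8.77 and 9.16 TPM in control cultures (log2 fold change -0.68, limma adjusted p = 5.1e-04). The lysosomal lipase Lipa and the droplet coat gene Plin3 fell further (log2 fold change -1.05 and -1.16), with Plin3 at 48.0 and 45.6 TPM in DOX cultures, against 104 and 107 TPM in control cultures. G0s2, an inhibitor of Pnpla2, was listed at 0 in all 4 libraries.

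Ketone body genes were few. Of 8, 4 were tested, with 0 higher and 2 lower (median log2 fold change -0.21), or 50% called against 64.4% of all tested genes. Without adjustment for multiple tests, limma likewise gave 0 higher and 2 lower at p under 0.05. Bdh2, a cytosolic dehydrogenase, had 17.7 and 16.8 TPM in DOX cultures, against 42.5 and 41.0 TPM in control cultures (log2 fold change -1.23, limma adjusted p = 1.2e-06). Oxct1, the transferase that lets cells use ketone bodies, fell less, with 214 and 199 TPM in DOX cultures, against 263 and 250.2 TPM in control cultures (log2 fold change -0.31, limma adjusted p = 0.0021).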
